A study of Mus musculus with 6 samples.

Results

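Genes of endoplasmic reticulum (ER)-associated degradation, or ERAD, 34 in number, were followed in sorted mouse leptotene/zygotene (L/Z) spermatocytes of males with a conditional Eef1g deletion and of controls. They were chosen by symbol from the textbook steps of the pathway, from recognition of misfolded proteins to their extraction and ubiquitination. Herpud1 was included as the best-known stress-induced member. The choice was made with earlier results of these data known, so shares and medians of the list are a description. All 34 symbols were found among the 54532 genes of the count table, and 30 of them had enough reads to be tested.

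RNA was sequenced from 6 libraries, 3 labelled control and 3 labelled Eef1g-cKO, each made from L/Z spermatocytes sorted by flow cytometry with Hoechst staining from testes at 12 days postpartum (dpp). In Eef1g-cKO males, exons of Eef1g, which encodes eEF1G, the gamma part of eEF1 in translation elongation, are removed by Stra8-GFPCre, a Cre active in male germ cells from the spermatogonial stage. Controls are labelled wild type and were littermates. The floxed allele was made on a C57BL/6J background. Whether controls carried the floxed allele or Cre is not given in the sources used here, nor is the number of males behind a library. Where libraries do not come from separate animals, p-values measure only the spread between these preparations, which may be technical.

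ERAD removes proteins that fail to fold in the ER. Lectins and mannosidases mark and recognise glycoproteins whose sugar trees have been trimmed, membrane ubiquitin ligases such as HRD1 with its partner SEL1L pass them through the membrane and tag them, and the ATPase VCP pulls them into the cytosol, where the proteasome degrades them. Part of the pathway is under the control of the unfolded protein response, which raises the transcription of ER chaperones and of some ERAD genes when unfolded proteins accumulate. Spermatocytes, like other cells, fold their membrane and secreted glycoproteins in the ER.

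Regulatory letters of the unfolded protein response were looked for near the gene starts, because Herpud1 is a textbook target and other HRD1 complex genes hold such letters too. The stretches printed here are the 170 bases just before the RefSeq start (GRCm38.p6, on the gene's own strand) of the 3 HRD1 complex genes that hold the ER stress response element in either form. Capitals mark the fixed letters of each match. Each stretch ends before the annotated first base of its own gene. Exons of other genes were not looked for in them.
Herpud1, chr8:94386259-94386428, plus strand: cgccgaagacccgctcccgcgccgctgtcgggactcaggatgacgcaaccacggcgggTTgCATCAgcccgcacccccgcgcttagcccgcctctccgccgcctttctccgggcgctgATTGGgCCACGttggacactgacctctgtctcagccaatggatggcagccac
Syvn1, chr19:6046406-6046575, plus strand: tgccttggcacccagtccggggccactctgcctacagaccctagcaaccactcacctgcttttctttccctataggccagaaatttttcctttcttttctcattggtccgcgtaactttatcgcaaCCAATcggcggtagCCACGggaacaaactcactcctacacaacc
Derl3, chr10:75893228-75893397, plus strand: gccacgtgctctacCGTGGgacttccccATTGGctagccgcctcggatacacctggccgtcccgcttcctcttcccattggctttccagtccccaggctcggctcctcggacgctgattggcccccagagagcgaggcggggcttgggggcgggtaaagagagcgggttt

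The windows searched held 300 bases on both strands, from 250 bases before to 50 bases after the start. The ER stress response element (ERSE) was spelled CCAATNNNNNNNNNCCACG, its other form (ERSE-II) ATTGGNCCACG, the unfolded protein response element (UPRE) TGACGTG and the amino acid response element bound by ATF4 (CARE) TGATGNAA. ERSE and ERSE-II share the letters CCACG. Of 32851 RefSeq promoter windows of that length, 0.119% held ERSE, 0.0365% held ERSE-II, 2.01% held UPRE and 3.97% held CARE. Windows were at hand for 27 of the 34 genes, and those of Erlec1, Derl1, Rnf5, Rnf139, Erlin2, Ube2g2 and Aup1 were not. Of the 27, 6 held at least 1 motif. Herpud1 held ERSE-II at positions -52 to -42 from the start and CARE on the other strand at -112 to -105, the only one of the 27 with ERSE-II and the only one with 2 of the motifs. Syvn1 held ERSE at -44 to -26 and Derl3 held it on the other strand at -156 to -138. Vcp held UPRE at -114 to -108, Ube2j1 held it on the other strand at -67 to -61, and Faf2 held CARE on the other strand at -183 to -176. The windows of Herpud2 and Selenok held none of these letters. A match is a description of the letters and does not show that a factor binds there.

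**Figure D1:**
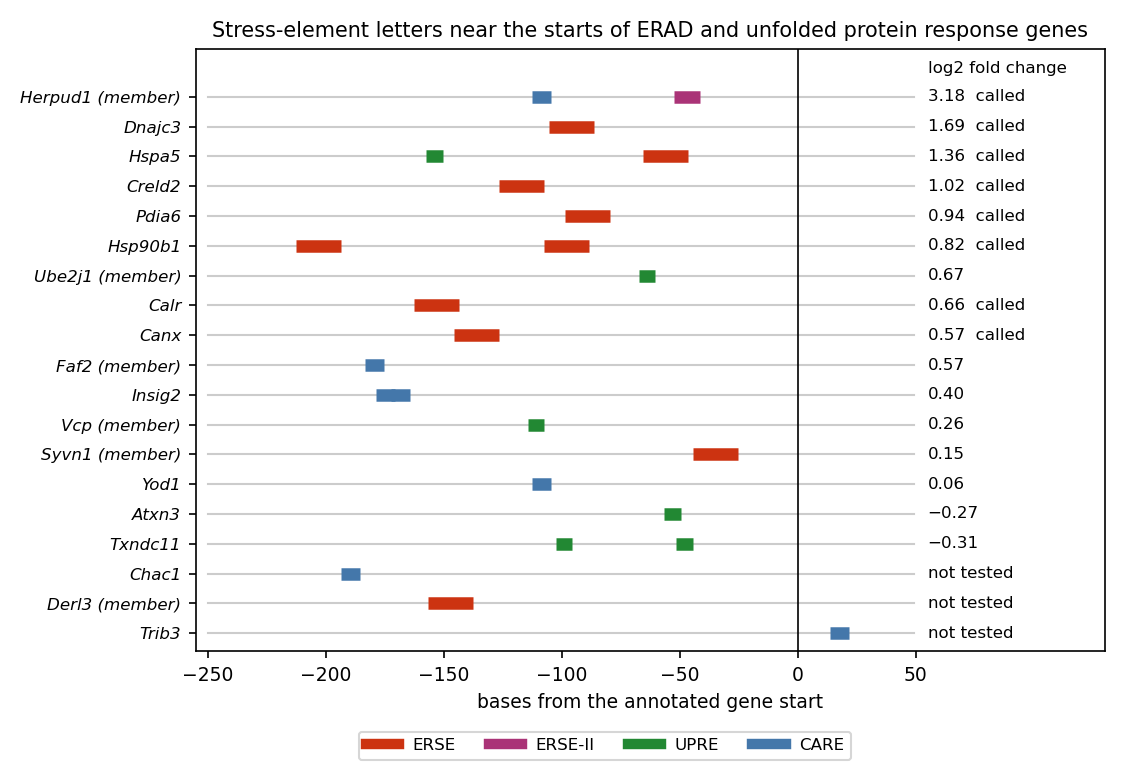
Positions of ERSE, ERSE-II, UPRE and CARE letters from 250 bases before to 50 bases after the annotated start, one row per gene of the ERAD, other ERAD and unfolded protein response lists that holds any, with the log2 fold change (Eef1g-cKO over control) at the right. Herpud1, with ERSE-II at positions -52 to -42, heads the rows at 3.18. Syvn1, with ERSE at -44 to -26, stands at 0.15 (SE 0.64), from 11 to 25 reads a library. A link between the letters and the fold changes was not tested.

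Library totals ran from 763133 to 2617648 reads assigned to genes, so that 3 reads, taken as the floor, were worth between 1.18 and 4.63 CPM (reads of a gene per 1000000 reads of the scaled library). The highest floor was that of Eef1g-cKO replicate 3. The targeted gene Eef1g went from 220 ± 7.34 in control libraries to 136 ± 16 CPM in the knockout ones (SD, n = 3), without overlap, and its log2 fold change was −0.68 (SE 0.20; adjusted p = 0.029, edgeR quasi-likelihood test). Reads from exons outside the deletion count toward it. This call was lost in 8 of 17 alternatives, among them the fits without any 1 of the control libraries (adjusted p 0.092 to 0.12) or without Eef1g-cKO replicate 1 (0.084). Among 8513 genes tested, 7.8% were higher and 6.01% lower in Eef1g-cKO at an adjusted p under 0.05, which is what "called" means from here on. With an absolute log2 fold change over 1 as well, 3.42% were higher and 4.96% lower. Of all calls, 56.5% were higher with TMM scaling, 42.0% with upper-quartile scaling and 35.3% with library totals alone. The median log2 fold change over all tested genes was −0.05.

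Markers of the sorted cells and of their neighbours also moved between the groups. Summed over 12 L/Z spermatocyte markers, the level was 10500 to 11732 CPM in control and 21537 to 28584 CPM in Eef1g-cKO libraries, and 6 of 11 tested markers were higher and 1, Stra8, lower. The 14 spermatogonia markers summed to 1590 to 1790 CPM in control and 740 to 910 CPM in Eef1g-cKO, with 5 of 7 tested markers lower. Sertoli cell markers (11 genes) summed to 87.8 to 315 CPM against 1.54 to 52.6 CPM, and peritubular and stromal markers (8 genes) to 188 to 322 CPM against 23.2 to 79.2 CPM. The 12 pachytene and later markers summed to 25.2 to 46.5 CPM against 3.09 to 18.4 CPM, with Acr, Prm2, Hspa1l and Adam3 at 0 reads in every library. Leydig cell markers (7 genes) summed to 8.40 to 10.7 CPM against 1.57 to 6.47 CPM, with Hsd3b1, Cyp17a1 and Hsd17b3 at 0, and blood cell and macrophage markers (8 genes) to 6.72 to 77.9 CPM against 3.53 to 75.7 CPM, with Cd68 and Csf1r at 0. The part of these shifts in the ERAD values was not tested. By immunostaining, the study counted a similar share of L/Z spermatocytes in sorted cells of both genotypes. That count does not give the shares of the other cell types. In sorted bulk samples, fewer cells of a type and less RNA per cell cannot be told apart.

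To ask whether loss of eEF1G altered the transcripts of the degradation pathway, the members were compared between the groups. The members Herpud1, Erlec1, Selenok and Herpud2 rose, and none fell. Of these 4, 3 are among the 8 tested HRD1 complex genes, and Erlec1 is among the 5 tested substrate recognition genes. None was called of 5 conjugation genes, 4 extraction genes, 5 other ligases and adaptors or 3 genes after extraction. Groups this small cannot set the steps apart at the 7.8% share of all tested genes called higher. The 4 called members are 13.3% of the 30 tested members, against the 7.8% of all tested genes called higher. Without Herpud1, 3 of 29 were called higher (10.3%). The fold limit was also passed by 3 of the 30, and by 2 of the 29 without Herpud1. Of all tested genes, 3.42% passed it upward. With p under 0.05 before adjustment the counts were also 4 higher and 0 lower, and DESeq2 and limma-voom each called the same 4 and none lower. The median log2 fold change of the 30 was 0.26, beside −0.05 over all tested genes, and 24 of 30 (80%) were positive, beside 47.5% of all tested genes. Without Herpud1 the median of the other 29 was also 0.26. Every Eef1g-cKO library lay above every control library for 7 members, 23.3% of those tested against 16.4% of all tested genes, and every one lay below for 0 of the 30 against 18.1%. Tmub1, which was not tested, was lower in every Eef1g-cKO library. With library totals alone the median of the members was 0.078, and with at least 10 reads required in every library it was 0.11.

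**Figure D2:**
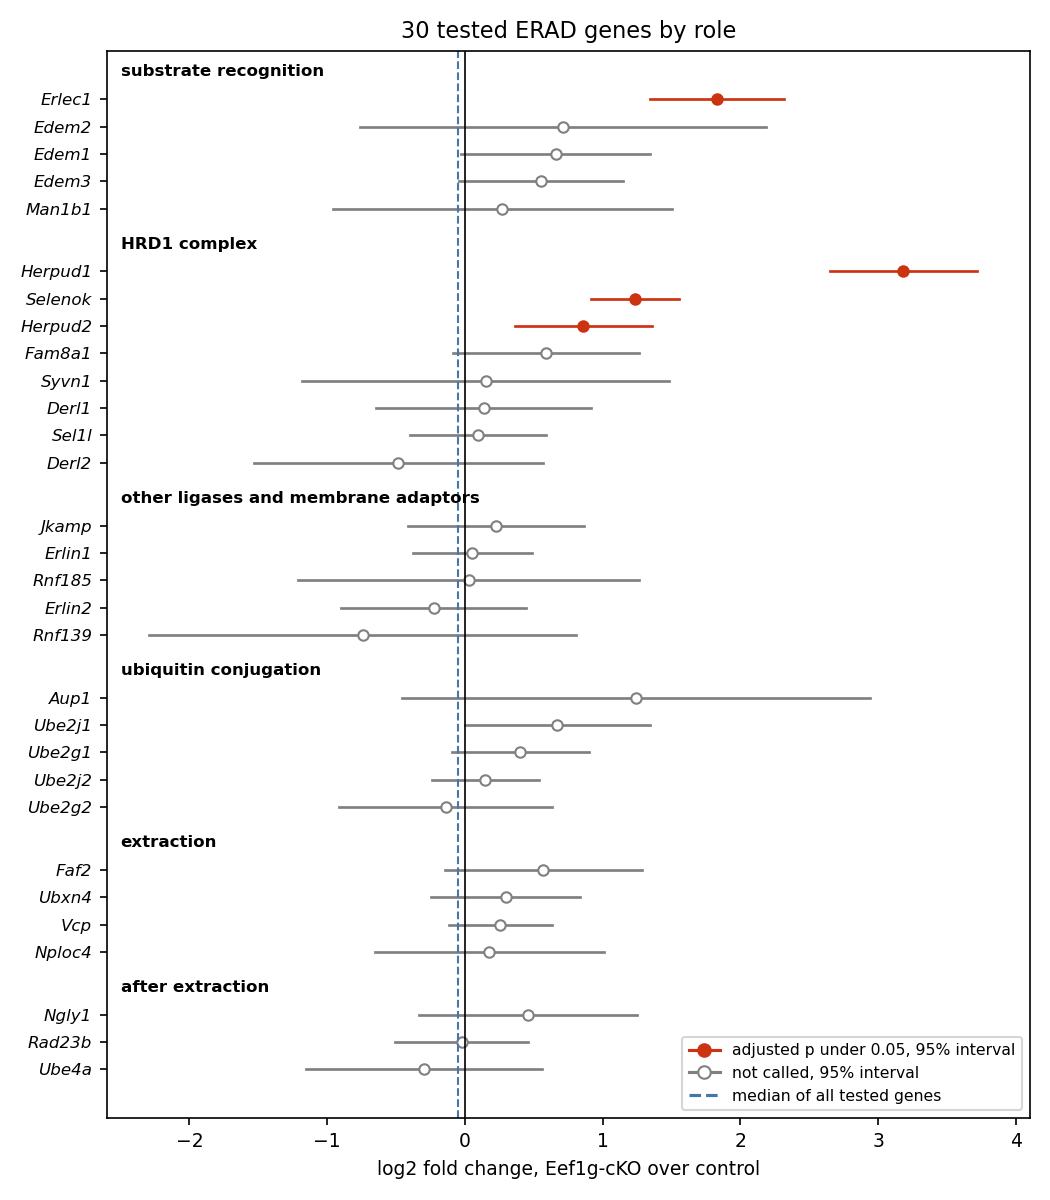
Log2 fold change (Eef1g-cKO over control) with its 95% interval for the 30 tested ERAD genes, grouped by role. Filled points are the 4 called genes, open points the other 26, and the dashed line is the median of all tested genes, −0.05. Herpud1, at 3.18, lies apart from the rest.

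Herpud1 (ENSMUSG00000031770, chromosome 8 from 94386438 to 94395377, plus strand, GRCm38) encodes a ubiquitin-like ER membrane protein that joins the HRD1 complex. It had 43, 40 and 50 reads in control replicates 1 to 3 and 293, 680 and 151 reads in Eef1g-cKO replicates 1 to 3. On the scaled level these were 32.8, 21.0 and 28.0 CPM in control and 237, 267 and 233 CPM in Eef1g-cKO. The groups stood far apart, with the shallowest library, Eef1g-cKO replicate 3, close to the other Eef1g-cKO libraries. The mean rose from 27.3 ± 5.94 to 246 ± 18.3 CPM (SD, n = 3). The log2 fold change fitted by edgeR was 3.18 (SE 0.25; adjusted p = 5.87e-07), which is a 9.08-fold increase. Across 17 alternatives the log2 fold change ran from 3.01 to 3.49 and was called in each. The window of Herpud1 holds ERSE-II and CARE, but a link between these letters and the rise was not tested.

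Because scaling can move all CPM values of a library together, Herpud1 was also set against Sel1l within each library. Sel1l encodes the adaptor that holds the HRD1 complex together, and its own log2 fold change was 0.10, or −0.20 without Eef1g-cKO replicate 2 and 0.32 without Eef1g-cKO replicate 3. There were 0.170, 0.118 and 0.180 Herpud1 reads for each Sel1l read in control and 1.39, 1.05 and 1.80 in Eef1g-cKO replicates 1 to 3. The ratios did not overlap. Those of Erlec1, 0.253 to 0.496 in control and 0.890 to 1.76 in Eef1g-cKO, and of Selenok, 1.83 to 2.55 and 3.44 to 6.49, did not overlap either, whereas those of Herpud2, 0.411 to 0.752 and 0.688 to 1.17, did. Herpud1 was 0.780% to 1.11% of the summed CPM of the 34 members in control and 5.52% to 6.51% in Eef1g-cKO libraries.

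Herpud2 (chromosome 9 from 25108132 to 25151820, minus strand), a relative of Herpud1, showed a smaller rise. Its reads were 122, 139 and 209 in control and 230, 445 and 98 in Eef1g-cKO, or 93.1, 73.0 and 117 CPM against 186, 174 and 151 CPM. The lowest Eef1g-cKO library, replicate 3, stood above the highest control library, replicate 3. The log2 fold change was 0.86 (SE 0.24; adjusted p = 0.021, edgeR). The log2 fold change was 0.71 to 1.05 without any 1 library, but the call was lost without control replicate 1 (0.86, adjusted p = 0.078), control replicate 2 (0.71, adjusted p = 0.13) or Eef1g-cKO replicate 1 (0.82, adjusted p = 0.066). It was also lost with library totals alone (adjusted p = 0.086) or a GC content offset (adjusted p = 0.058).

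Selenok (chromosome 14 from 29968308 to 29975662, plus strand) encodes selenoprotein K, a small membrane protein that binds derlins and VCP. It was the most abundant member per kilobase in control. Its reads were 470, 620 and 709 in control and 1024, 2228 and 545 in Eef1g-cKO, or 359, 325 and 397 CPM against 828, 874 and 842 CPM. The 3 Eef1g-cKO libraries lay close together and all above control. The mean rose from 360 ± 35.7 to 848 ± 23.3 CPM, which is 1.23 on the log2 scale (SE 0.15; adjusted p = 4e-05). Of its 6 named pseudogenes in the table, Selenok-ps1 had between 8 and 42 reads in a library and the others had 0.

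The remaining tested members of the HRD1 complex were not called. Sel1l had 193, 177 and 156 CPM in control and 171, 254 and 130 CPM in Eef1g-cKO, which overlapped, with a 95% interval of the log2 fold change from −0.40 to 0.59. Syvn1, which encodes the ligase HRD1 itself, had 17.6, 8.40 and 10.1 CPM in control and 13.7, 9.80 and 17.0 CPM in Eef1g-cKO. With 11 to 25 reads a library, its interval from −1.19 to 1.48 contains a change of the size called for Selenok. A change of that size was therefore not excluded. Its window holds ERSE, and its groups overlapped.

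The derlins form part of the channel through which substrates leave the ER. Derl1 had 24.4, 52.0 and 63.8 CPM in control and 62.3, 43.9 and 49.4 CPM in Eef1g-cKO (log2 fold change 0.14, SE 0.37). Derl2 had 26.7, 26.8 and 23.0 CPM against 25.9, 18.0 and 9.27 CPM (log2 fold change −0.48, SE 0.50), where Eef1g-cKO replicate 3, with 6 reads, was lowest. Neither separated the groups. Fam8a1, a cofactor of HRD1, had 38.9, 49.3 and 56.0 CPM in control and 56.6, 95.3 and 63.3 CPM in Eef1g-cKO. Its libraries did not overlap, but its log2 fold change of 0.59 (SE 0.32; adjusted p = 0.25, edgeR) was not called. Derl3, whose window holds ERSE, had 2, 10 and 5 reads in control and 0, 6 and 0 in Eef1g-cKO, too few for the test.

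**Figure D3:**
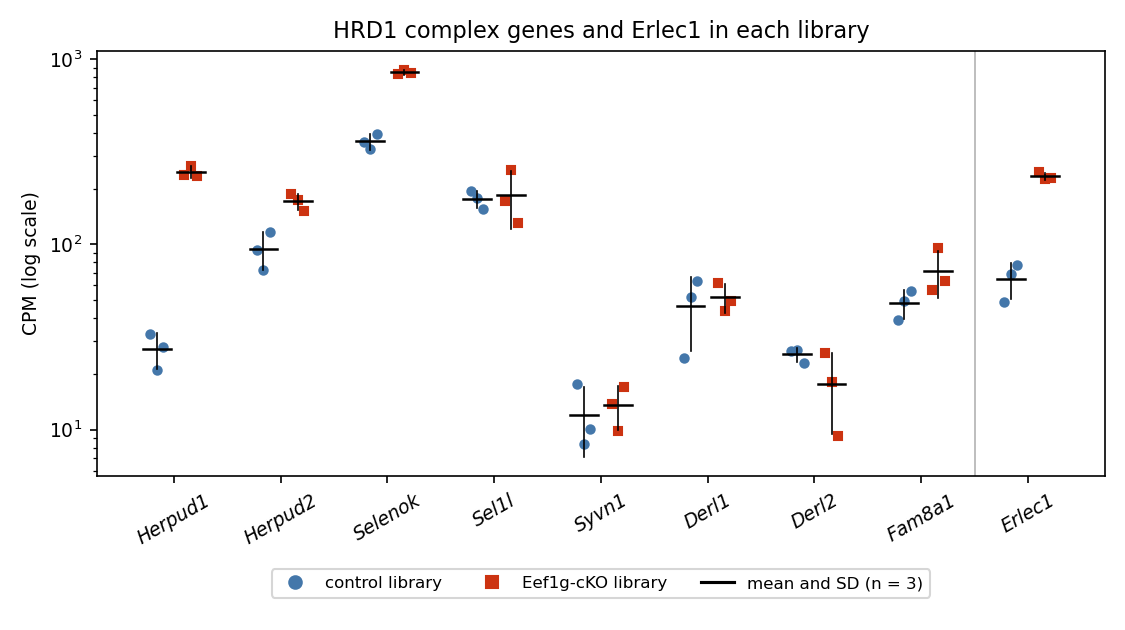
CPM on a log axis of the 8 tested HRD1 complex genes and, to the right of the line, Erlec1, with one point per library and the mean and SD (n = 3) of each group. The control and Eef1g-cKO libraries separate widely for Herpud1, Selenok and Erlec1, narrowly for Herpud2 and Fam8a1, and overlap for Sel1l, Syvn1, Derl1 and Derl2.

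Among the genes of substrate recognition, Erlec1 (chromosome 11 from 30930774 to 30954335, minus strand) rose. It encodes a lectin that binds trimmed glycans and passes substrates to the HRD1 complex. Its reads were 64, 132 and 138 in control and 303, 576 and 148 in Eef1g-cKO, or 48.8, 69.3 and 77.2 CPM against 245, 226 and 229 CPM. The lowest Eef1g-cKO level was well above the highest control level. The log2 fold change was 1.83 (SE 0.23; adjusted p = 4.78e-05), a 3.56-fold difference. Os9, which encodes the other lectin of this step, had 0, 5 and 1 reads in control and 3, 0 and 3 in Eef1g-cKO and was not tested, so the lectins cannot be compared.

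The EDEM proteins and the ER mannosidase Man1b1 trim mannose from glycoproteins that stay unfolded. Edem1 and Edem3 were higher in every Eef1g-cKO library than in every control library, but neither passed the test (log2 fold change 0.66, SE 0.33, and 0.55, SE 0.28). Edem2 (0.71, SE 0.70) and Man1b1 (0.27, SE 0.59) overlapped. All 5 tested genes of this step had positive log2 fold changes, beside 47.5% of all tested genes, with a median of 0.66. Of them 1 was called, beside 7.8% of all tested genes called higher. A group of 5 is too small to set this step apart. The value of Man1b1 was −0.07 without Eef1g-cKO replicate 1, −0.01 without control replicate 2 and 0.87 without control replicate 1.

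None of the 5 tested genes among the other ligases and membrane adaptors was called, and their median log2 fold change was 0.03. Erlin1 and Erlin2, whose products form a complex that targets activated inositol trisphosphate receptors for degradation, had log2 fold changes of 0.05 (SE 0.21) and −0.23 (SE 0.32). That of Erlin2 was −0.75 without Eef1g-cKO replicate 2 and 0.01 without Eef1g-cKO replicate 3. Jkamp, an adaptor of the ligase RNF5, had 0.23 (SE 0.30) and the ligase gene Rnf185 had 0.03 (SE 0.59). Rnf139, a ligase gene with the lowest log2 fold change of the 30 members, had 37, 33 and 20 reads in control and 2, 62 and 3 in Eef1g-cKO, or 28.2, 17.3 and 11.2 CPM against 1.62, 24.3 and 4.63 CPM. Eef1g-cKO replicates 1 and 3 were at or under the floor, whereas Eef1g-cKO replicate 2 lay within the control range. Its log2 fold change was −0.74 (SE 0.74), and −2.68 without Eef1g-cKO replicate 2 (adjusted p = 0.053, edgeR). Its exons share 22.3% of their bases with Tatdn1 on the opposite strand. Rnf5 was listed at 0 in every library, and Tmub1 had 13, 17 and 8 reads in control and 2, 5 and 1 in Eef1g-cKO, too few for the test. Its levels, 9.92, 8.92 and 4.48 CPM against 1.62, 1.96 and 1.54 CPM, did not overlap.

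The ubiquitin-conjugating enzymes that work with these ligases were not called either. Ube2j1 and Ube2j2 encode membrane-anchored enzymes and had log2 fold changes of 0.67 (SE 0.32; adjusted p = 0.18, edgeR) and 0.15 (SE 0.19). Ube2g1 and Ube2g2 encode cytosolic ones and had 0.40 (SE 0.24) and −0.14 (SE 0.37). Aup1, which recruits the product of Ube2g2 to the membrane, had 10, 4 and 9 reads in control and 19, 34 and 3 in Eef1g-cKO. Its log2 fold change of 1.24 (SE 0.81) was the third highest of the 30, yet its groups overlapped, and its exons share 23% of their bases with Htra2 on the opposite strand.

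No gene of the extraction step was called. Vcp, which encodes the ATPase that pulls substrates from the membrane, had 785, 901 and 814 reads in control and 651, 1379 and 495 in Eef1g-cKO, or 599, 473 and 456 CPM against 526, 541 and 765 CPM. The groups overlapped, and the 95% interval of the log2 fold change ran from −0.12 to 0.63. Its cofactor Nploc4 had a log2 fold change of 0.18 (SE 0.40). Faf2 and Ubxn4, which anchor VCP at the ER membrane, had 0.57 (SE 0.34) and 0.29 (SE 0.26). The value of Ubxn4 turned to −0.05 without Eef1g-cKO replicate 3. After extraction, Ngly1, which strips glycans from the released protein, had 0.46 (SE 0.38), or 0.04 without Eef1g-cKO replicate 1. Ube4a, a ubiquitin chain elongation factor, had −0.30 (SE 0.41) and the proteasome shuttle Rad23b had −0.02 (SE 0.23).

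Levels between members were compared per kilobase of gene length. In control, Selenok was highest at 172 to 210 CPM per kilobase, followed without overlap by Vcp at 93.9 to 124 and Ube2j2 at 51.8 to 75.5. Ubxn4 came next at 32.6 to 42.3 and overlapped with Erlin1 at 31.0 to 36.6. Below them most neighbours in the order overlapped. Herpud1 stood at place 17 of 34 in control, with a mean of 11.7 CPM per kilobase, and at place 3 in Eef1g-cKO, with a mean of 105. There it lay below Selenok, whose mean was 448, and overlapped with Vcp, whose mean was 126. Erlec1 went from place 10 to place 4. Syvn1 was at place 29 in control and 28 in Eef1g-cKO, at 1.76 to 3.68 and 2.05 to 3.56 CPM per kilobase.

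**Figure D4:**
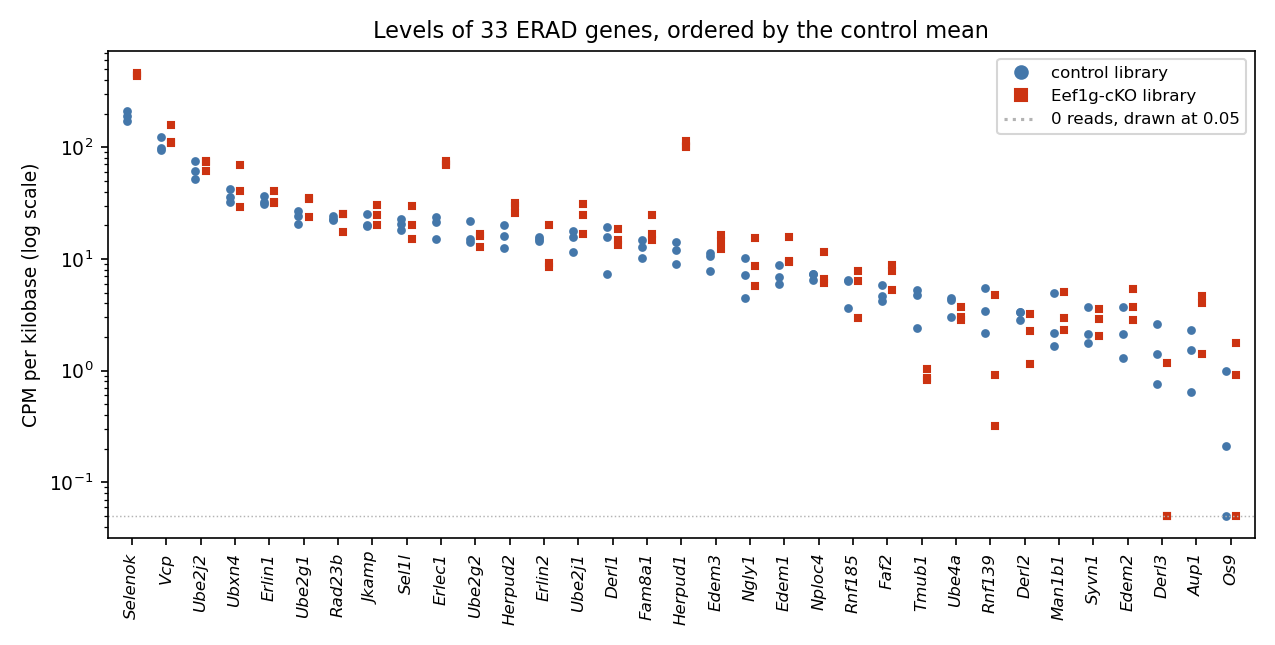
CPM per kilobase on a log axis in each library for the 33 members with reads in control, ordered by the control mean. Herpud1, at place 17 in control, rises to place 3 in Eef1g-cKO.

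Summed over all 34 members, the level was 2692 to 2944 CPM in control and 4042 to 4223 CPM in Eef1g-cKO libraries. The 4 called members made up 489 to 619 CPM of this in control and 1455 to 1540 CPM in Eef1g-cKO. The other 30 members summed to 2170 to 2410 CPM and 2546 to 2768 CPM. The split into called and other members was made on these same values and is a description. By role, the HRD1 complex summed to 739 to 853 CPM in control and 1495 to 1738 CPM in Eef1g-cKO, and the recognition genes to 195 to 204 CPM and 404 to 455 CPM. The first sum holds the called Herpud1, Herpud2 and Selenok, and the second the called Erlec1. Mean levels in control and Eef1g-cKO were 360 and 848 CPM for Selenok, 27.3 and 246 CPM for Herpud1, and 65.1 and 233 CPM for Erlec1. The remaining genes of both roles were not called or not tested, so these sums do not describe either role as a unit. The sums of the other 4 roles overlapped between the groups.

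Further genes of the pathway and of its surroundings were counted from lists that do not hold the members. Of 62 other ERAD genes, 46 were tested, 5 were higher (10.9%, beside 7.8% of all tested genes) and 1 lower (2.17%, beside 6.01%), with a median log2 fold change of 0.04. March6, an ER membrane ligase gene, had 0.90 (SE 0.18; adjusted p = 0.0031), and Ubqln1, a proteasome shuttle gene, had 1.23 (SE 0.25; adjusted p = 0.0031). Ubxn2a, which encodes a VCP cofactor, rose by 1.31 (SE 0.34), Calr by 0.66 (SE 0.15) and Canx by 0.57 (SE 0.15), both ER lectin chaperones. Get4, which encodes a cytosolic factor of tail-anchored protein delivery, was lower at −1.90 (SE 0.46). Canx was called in 9 of 17 alternatives and not without any 1 of the control libraries (adjusted p 0.050 to 0.091). The call for Get4 was lost without control replicate 1 (adjusted p = 0.051, edgeR), and the higher count was 3 without control replicate 2 or control replicate 3 and with library totals alone.

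In the unfolded protein response list of 26 genes, 7 of 19 tested genes were higher, 36.8% beside the 7.8% of all tested genes, and 0 were lower. With p under 0.05 before adjustment the counts were 8 and 1. Hspa5, the ER chaperone BiP, had 2521, 3471 and 2816 reads in control and 5038, 10590 and 3544 in Eef1g-cKO, which is 1.36 on the log2 scale (SE 0.15; adjusted p = 8.4e-06). Dnajc3, a co-chaperone of BiP, had 1.69 (SE 0.19). Manf had 1.03, Creld2 had 1.02, Pdia6 had 0.94 and Hsp90b1 had 0.82. Atf4, which encodes a stress transcription factor, had 1.04 (SE 0.18; adjusted p = 9e-04). Xbp1, which encodes the factor that acts on ERSE and UPRE after splicing, had 48.1, 41.5 and 39.7 CPM in control and 35.6, 18.8 and 34.0 CPM in Eef1g-cKO. Every Eef1g-cKO library was below control, but the log2 fold change of −0.58 (SE 0.40; adjusted p = 0.37, edgeR) was not called, and gene counts do not show its splicing. Ddit3, which encodes the stress factor CHOP, had 9, 8 and 0 reads in control and 10, 12 and 2 in Eef1g-cKO, too few for the test. Of this list, 22 genes had a window and 5 held ERSE, namely Hspa5, Dnajc3, Hsp90b1, Pdia6 and Creld2, all of them called higher. Calr and Canx held it among the other ERAD genes. Among the members it was held by Syvn1, which was not called, and Derl3, which was not tested. The share called among all windows with ERSE was not taken, and a link between these letters and the rise was not tested.

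The proteasome degrades what ERAD delivers. Of 33 genes of the 26S proteasome, 32 were tested, 1 was higher (3.12%, beside 7.8% of all tested genes) and 5 were lower (15.6%, beside 6.01%), with a median log2 fold change of −0.22. The higher one was Psma6 (0.63, SE 0.18). Those that fell were the core subunit genes Psma4 (−0.84, SE 0.17), Psma7 (−0.90, SE 0.20), Psmb1 (−0.78, SE 0.17), Psmb3 (−1.10, SE 0.29) and Psmb5 (−1.46, SE 0.40). The higher call was lost with library totals alone and in the fits without control replicate 1, control replicate 2 or Eef1g-cKO replicate 2, and the lower count fell to 3 without control replicate 1, control replicate 3 or Eef1g-cKO replicate 1.

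**Figure D5:**
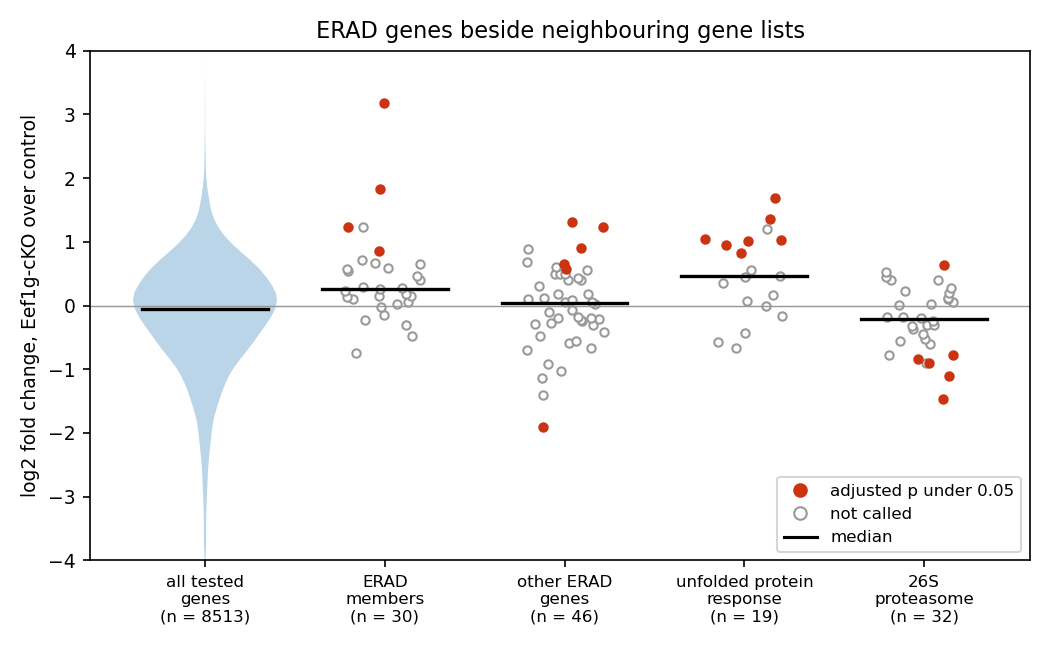
Log2 fold change (Eef1g-cKO over control) of all 8513 tested genes as a violin, cropped at −4 and 4, and of the tested genes of 4 lists as points, filled where called, with the median as a bar. The medians are −0.05 for all genes, 0.26 for the ERAD members, 0.04 for other ERAD genes, 0.47 for the unfolded protein response and −0.22 for the proteasome.

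The exons of 11 members share bases with another annotated gene, and none of the 4 called members is among them. The strand setting of the counting is not given in the sources used here, so for those 11, Syvn1, Derl2, Rnf139, Aup1 and Vcp included, reads of an overlapping or antisense gene could not be told apart.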

How the data were processed

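RNA from 6 libraries of sorted L/Z spermatocytes, 3 control and 3 Eef1g-cKO, was amplified as full-length cDNA from polyadenylated RNA without molecular identifiers. The authors filtered reads with fastp, aligned them to GRCm38 with HISAT2 2.2.1 and assigned them to genes by featureCounts 2.0.6. What they deposited are raw counts of reads per gene, not normalised or pooled. Strand and multi-mapping settings are not given in the sources used here.

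From these counts, genes were kept by filterByExpr (minimum count 10, minimum total 15), leaving 8513 genes with 98.1% of reads. Libraries were scaled by TMM and tested with the robust quasi-likelihood F test of edgeR 4.0.16 (R 4.3.3), with genotype as the only term and Benjamini-Hochberg adjustment over all tested genes. The study states the level and the log2 fold limit of 1 but no adjustment. A standard error was taken as the size of the log2 fold change over the root of its F value, and 95% intervals use the degrees of freedom of the test. CPM used the scaled library sizes, and CPM per kilobase the length column of the deposited table. No 2 libraries agreed within sampling noise (lowest chi-square per degree of freedom 6.37). The floor of 3 reads covers counting error only. The scripts were tested on simulated data.

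The members and lists were chosen with earlier results of these data known, so no list was tested as a set. By rule, each called member, each tested HRD1 complex member, the most abundant member and the extremes of log2 fold change are given in every library, other tested members by log2 fold change and SE, and untested ones by reads. Of each other list, called genes with the 6 smallest p-values are named, plus Hspa5, Xbp1, Atf4 and Ddit3. Umad1, listed by mistake, was dropped from the other ERAD list. Of 64 symbols there, 62 matched a gene of the count table, and the others, Marchf6 and Otud2, matched none. For Ddit3, which has 2 rows, the row with more reads was used.

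As alternatives, libraries were scaled by RLE, by upper quartiles or by their totals, the low-count filter was dropped or set to 10 reads in each library, and the test was replaced by that of DESeq2 1.42.0 or of limma-voom (limma 3.58.1, quality weights). Others were a replicate block, thinning to the smallest library, leaving out mitochondrial and rRNA genes, a GC content offset and leaving out each library. They were applied to the unfolded protein response and proteasome lists after seeing the data. Exon overlaps were read from GENCODE M21.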

Additional observations from a re-analysis of the deposited data

How the results depend on the processing

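Of the 4 called members, Herpud1, Erlec1 and Selenok were called in all 17 refits, and Herpud2 in 12; the number of members called higher was 3 or 4 and lower 0 in each, also without any 1 library (3 to 4 and 0). Herpud1 ran from 3.03 to 3.34 when 1 library was left out. Over the 17 refits, the 29 tested members other than Herpud1 gave 485 values, 1 for each gene and refit that tested it. Of these, 480 stayed on their side of the threshold, the exceptions being those of Herpud2, and no called value changed sign. The replicate block changed neither the 4 calls nor the 0 (log2 fold change of Herpud1 3.19), but lost the calls of Eef1g (−0.69, adjusted p = 0.058), Canx (0.57, adjusted p = 0.054; also lost in 7 other alternatives) and Psma6. Pairing by number was not seen. Deviations from the group means correlated at −0.04, 0.02 and −0.05 between same-numbered libraries, and 1 of 6 libraries correlated best with its own number. With 3 libraries a group, these values cannot exclude pairing.

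The median of the members was 0.078 with library totals alone, 0.14 with upper-quartile scaling, 0.11 with at least 10 reads in every library (25 members tested) and 0.41 with a GC content offset, and 0.22 to 0.35 without 1 library. Library totals moved the median of all genes by −0.18 and upper-quartile scaling by −0.12; relative to it, the members stood at 0.30 and 0.31, beside 0.31 with TMM, but at 0.11 with at least 10 reads in every library and 0.59 without the low-count filter. The median over all genes moved by −0.25 without the low-count filter, which tests many genes near the floor. The count of all genes higher, 664, was 337 with library totals alone, 291 with the fold limit and 374 to 834 without 1 library, lowest without control replicate 2 (385 and 384 without control replicates 1 and 3). The count lower, 512, was 238 to 668 without 1 library, and 238, 239 and 238 without control replicates 1, 2 and 3. Those fits leave 2 control libraries.

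Eef1g was −0.64 without the low-count filter (adjusted p = 0.084), −0.48 in thinned libraries (0.16), −0.42 with a GC content offset (0.19) and −0.75 to −0.56 without 1 library. The other ERAD genes called higher numbered 3 with library totals alone, 2 with the fold limit and 3 to 6 without 1 library, and those lower 0 with the minimum of 10 reads in each library, which leaves out Get4, and 0 to 1 without 1 library. The unfolded protein response count was 7 without any 1 library. Proteasome genes higher numbered 0 with library totals alone, upper-quartile scaling, at least 10 reads in every library, the replicate block, thinned libraries or the fold limit, 3 with limma-voom and 0 to 3 without 1 library. Those lower numbered 8 with upper-quartile scaling, 3 with a GC content offset, 2 with the fold limit and 3 to 6 without 1 library. Where not stated, the cause was not tested.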
